A study of Mus musculus with 9 samples.

Results

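Krt19, Krt79, Krt8, Krt18, Plet1, Epcam, Cdh1 and Spag11b are genes better known from epithelia than from macrophages, and the RNA of 6 of them averaged 10 FPKM or more in the alveolar macrophages (AMs) of this study. The set is 8 of the 24346 gene symbols with a value in the 9 samples, and 7 of the 8 passed the filter on low values used for testing (FPKM of at least 1 in at least 3 samples, 10686 genes). The 8 genes were chosen by their measured levels and changes in these same samples, in earlier results of these data, so their levels and changes across the groups are given as a description and no p-value is given for them. FPKM counts fragments per kilobase of transcript after scaling by a sample's mapped fragments.

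Each group had 3 samples of bulk RNA from sorted lung cells of C57BL/6 mice at post natal week 10. Ctrl-AM were AMs of control mice that received vehicle. Tumor-AM were AMs of mice whose left lung had been injected with cells of LLC, the Lewis lung carcinoma line of C57BL/6 origin, here a single line made to express tdTomato, a red fluorescent protein. Tumor-macrophage were tumor-associated macrophages of such tumor-bearing mice. All groups were sorted from enzymatically digested lung that had not been perfused, as CD45+ cells with strong autofluorescence, AMs as the Siglec-F+ cells and Tumor-macrophage as the Siglec-F- F4/80+ CD11b+ cells. The gate on Siglec-F therefore separated the 3rd group from the others by protein, and Siglecf RNA followed it, at 164 to 209 FPKM in the 6 AM samples and 0.456 to 0.835 FPKM in the 3 Tumor-macrophage samples. From the low values, the samples held an estimated 10200000 to 12800000 reads, with relative depths of 0.906 to 1.14. In bulk RNA, fewer cells of a type and less RNA per cell cannot be told apart.

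Keratins build the intermediate filaments of epithelial cells, always as pairs of a type I chain (here Krt18 and Krt19) and a type II chain (here Krt8 and Krt79), and Krt8 with Krt18 is the usual pair of simple epithelia such as that of the lung. Epcam and Cdh1 (E-cadherin) are adhesion proteins of epithelial cell surfaces, and E-cadherin is tied to actin through the catenins. Plet1 is a lipid-anchored surface protein known from placenta and skin, and Spag11b encodes a defensin-like peptide known from the epididymis. AMs live on the epithelial surface of the alveoli, and tissue digestion can release epithelial RNA into a sort, so the question here was whether these genes moved between groups as AM identity genes did or varied from sample to sample as epithelial RNA would.

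By the GENCODE vM21 annotation of GRCm38 the keratins lie in both keratin gene clusters. Krt19 is at chr11:100140810-100148665 on the minus strand with 6 exons. Krt79 (chr15:101929332-101940324, minus), Krt8 (chr15:101996698-102004482, minus) and Krt18 (chr15:102028180-102032027, plus) share the cluster on chromosome 15, with 9, 9 and 7 exons. Plet1 is at chr9:50494525-50505482 (plus, 4 exons), Epcam at chr17:87635979-87651129 (plus, 10 exons), Cdh1 at chr8:106603351-106670246 (plus, 16 exons) and Spag11b at chr8:19140759-19143010 (plus, 3 exons). Shared or overlapping sequence was measured as the share of 75-base windows of a member's first annotated transcript that also occur in another gene, 75 bases being the read length. It was 23.5% for Krt8 (shared with Krt8-ps and Gm36026) and 7.37% for Plet1 (shared with its antisense gene Plet1os), so both are less certain. Plet1os itself was at 3.68 to 4.55 FPKM in the AM samples, and whether the counting used strand is not given in the sources used here.

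The sequences upstream of the start show members that shared the fall in Tumor-macrophage. Plet1, Krt79 and Epcam are printed, each as the 250 bases before the RefSeq transcript start in GRCm38.p6 and 5′ to 3′ along the gene. They lie at chr9:50494275-50494524 (plus), chr15:101940325-101940574 (minus) and chr17:87635729-87635978 (plus). The capitals mark the E-box letters CACCTG on either strand, so that CAGGTG is the same letters read on the other strand.
Plet1: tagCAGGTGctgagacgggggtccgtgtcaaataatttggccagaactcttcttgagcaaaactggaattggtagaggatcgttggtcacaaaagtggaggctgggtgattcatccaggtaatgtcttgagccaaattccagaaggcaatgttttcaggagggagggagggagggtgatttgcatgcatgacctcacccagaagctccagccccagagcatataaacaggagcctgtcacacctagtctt
Krt79: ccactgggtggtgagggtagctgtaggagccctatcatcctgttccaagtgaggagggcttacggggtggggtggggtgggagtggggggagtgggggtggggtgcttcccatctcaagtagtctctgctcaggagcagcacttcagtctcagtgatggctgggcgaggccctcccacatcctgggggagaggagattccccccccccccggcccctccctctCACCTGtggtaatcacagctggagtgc
Epcam: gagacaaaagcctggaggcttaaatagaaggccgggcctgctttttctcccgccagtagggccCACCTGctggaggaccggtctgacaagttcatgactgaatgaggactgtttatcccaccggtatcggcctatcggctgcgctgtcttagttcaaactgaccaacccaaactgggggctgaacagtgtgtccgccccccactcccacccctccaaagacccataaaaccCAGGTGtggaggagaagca
CACCTG was found in 5 of the 5 members with a window in the table (Plet1, Krt79, Krt8, Krt18 and Epcam), against 17.2% of all 32851 windows. Its first base lay 247 bases before the start in Plet1, 27 in Krt79, 111 in Krt8, 214 in Krt18, and 187 and 19 in Epcam. The RefSeq start of Krt8 and of Krt18 lies inside the GENCODE gene, so part of each window is gene body, and the letters in Krt8 fall in that part. Both the members that were high in AMs and the pair that were near 0 (Krt8 and Krt18) therefore held these letters. The nuclear receptor half-site AGGTCA was in 3 of 5 (Plet1, Krt8 and Krt18; 14.0% of all windows), the AP-1 letters TGANTCA in 1 (Plet1; 6.75%), GGAAGT in 1 (Krt8; 19.7%) and GGGCGG in 1 (Epcam; 32.7%). GAGGAA and AACNGGTT were in 0 of 5 (23.3% and 1.79% of all windows). GAGGAA and GGAAGT can overlap, and all letters were searched on both strands. Krt19, Cdh1 and Spag11b had no entry.

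Plet1 was the highest of the 8 genes. Its values were 1232, 1332 and 1298 FPKM in the Ctrl-AM samples (1287 ± 50.9, SD, n = 3), 1481, 1485 and 1596 in those of Tumor-AM (1521 ± 65.4) and 9.32, 3.74 and 8.80 in those of Tumor-macrophage (7.29 ± 3.08). All 3 Tumor-AM samples were above all 3 Ctrl-AM samples, by a mean of 1.18-fold, whereas Tumor-macrophage held 0.479% of the Tumor-AM level. Its coefficient of variation (CV) was the lowest of the members in both AM groups, at 3.96% in Ctrl-AM and 4.30% in Tumor-AM, but was 42.3% in Tumor-macrophage.

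Krt19, a type I keratin, had 861, 794 and 770 FPKM in the Ctrl-AM samples (808 ± 47.5), 438, 540 and 466 in those of Tumor-AM (481 ± 52.6) and 0.693, 0.150 and 0.756 in those of Tumor-macrophage (0.533 ± 0.333). The groups did not overlap, Tumor-AM was 1.68-fold below Ctrl-AM, and Tumor-macrophage held 0.111% of the Tumor-AM level, which came from an estimated 2.5 to 13.6 reads a sample.

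Krt79, a type II keratin, had 354, 312 and 338 FPKM in the Ctrl-AM samples (335 ± 21.3), 178, 298 and 240 in those of Tumor-AM (239 ± 60.0) and 0.143, 0.185 and 0.254 in those of Tumor-macrophage (0.194 ± 0.0564). These groups did not overlap either. Krt79 was 1.40-fold lower in Tumor-AM relative to Ctrl-AM and held 0.0814% of the Tumor-AM level in Tumor-macrophage, from an estimated 3.0 to 6.1 reads a sample.

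Krt8 and Krt18, the usual keratin pair of simple epithelia, were near 0. Krt8 was at 0, 0.491 and 0.134 FPKM in the Ctrl-AM samples, 0.108, 2.197 and 2.92 in those of Tumor-AM and 0.394, 2.03 and 0.602 in those of Tumor-macrophage. The groups overlapped, the highest value rested on an estimated 71.6 reads, and Krt8 passed the filter through exactly 3 samples. Krt18 was at 0, 0.359 and 0.0599 FPKM in the Ctrl-AM samples, 0.0725, 0.134 and 0.122 in those of Tumor-AM and 0, 0.367 and 0.403 in those of Tumor-macrophage. Every sample was below 1 FPKM, with an estimated 0 to 6.6 reads, so Krt18 was not tested and no difference was detectable at this depth.

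Epcam had 43.8, 53.9 and 67.8 FPKM in the Ctrl-AM samples (55.2 ± 12.0), 18.8, 4.52 and 8.27 in those of Tumor-AM (10.5 ± 7.43) and 0.436, 0 and 0.951 in those of Tumor-macrophage (0.462 ± 0.476). Each group lay wholly below the one before it. Epcam was 5.23-fold lower in Tumor-AM relative to Ctrl-AM, and 4.39% of the Tumor-AM level was left in Tumor-macrophage.

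Cdh1 had 19.1, 22.6 and 22.6 FPKM in the Ctrl-AM samples (21.4 ± 2.01), 12.9, 26.1 and 11.5 in those of Tumor-AM (16.9 ± 8.07) and 0.876, 1.58 and 1.33 in those of Tumor-macrophage (1.26 ± 0.358). Tumor-AM 2 was the highest of all 9 samples and the other Tumor-AM samples were below every Ctrl-AM sample, so both AM groups overlapped. The Tumor-macrophage samples were below all AM samples, with 7.50% of the Tumor-AM level left.

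Spag11b had 99.8, 77.9 and 96.0 FPKM in the Ctrl-AM samples (91.2 ± 11.7), 18.1, 21.1 and 9.92 in those of Tumor-AM (16.4 ± 5.77) and 0, 0.201 and 0 in those of Tumor-macrophage. Tumor-AM was 5.58-fold below Ctrl-AM without overlap. The single value above 0 in Tumor-macrophage equalled an estimated 0.7 read of the first annotated transcript (342 bases), where 3 reads would be 0.685 to 0.863 FPKM, so no ratio of levels is given against that group.

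**Figure D1:**
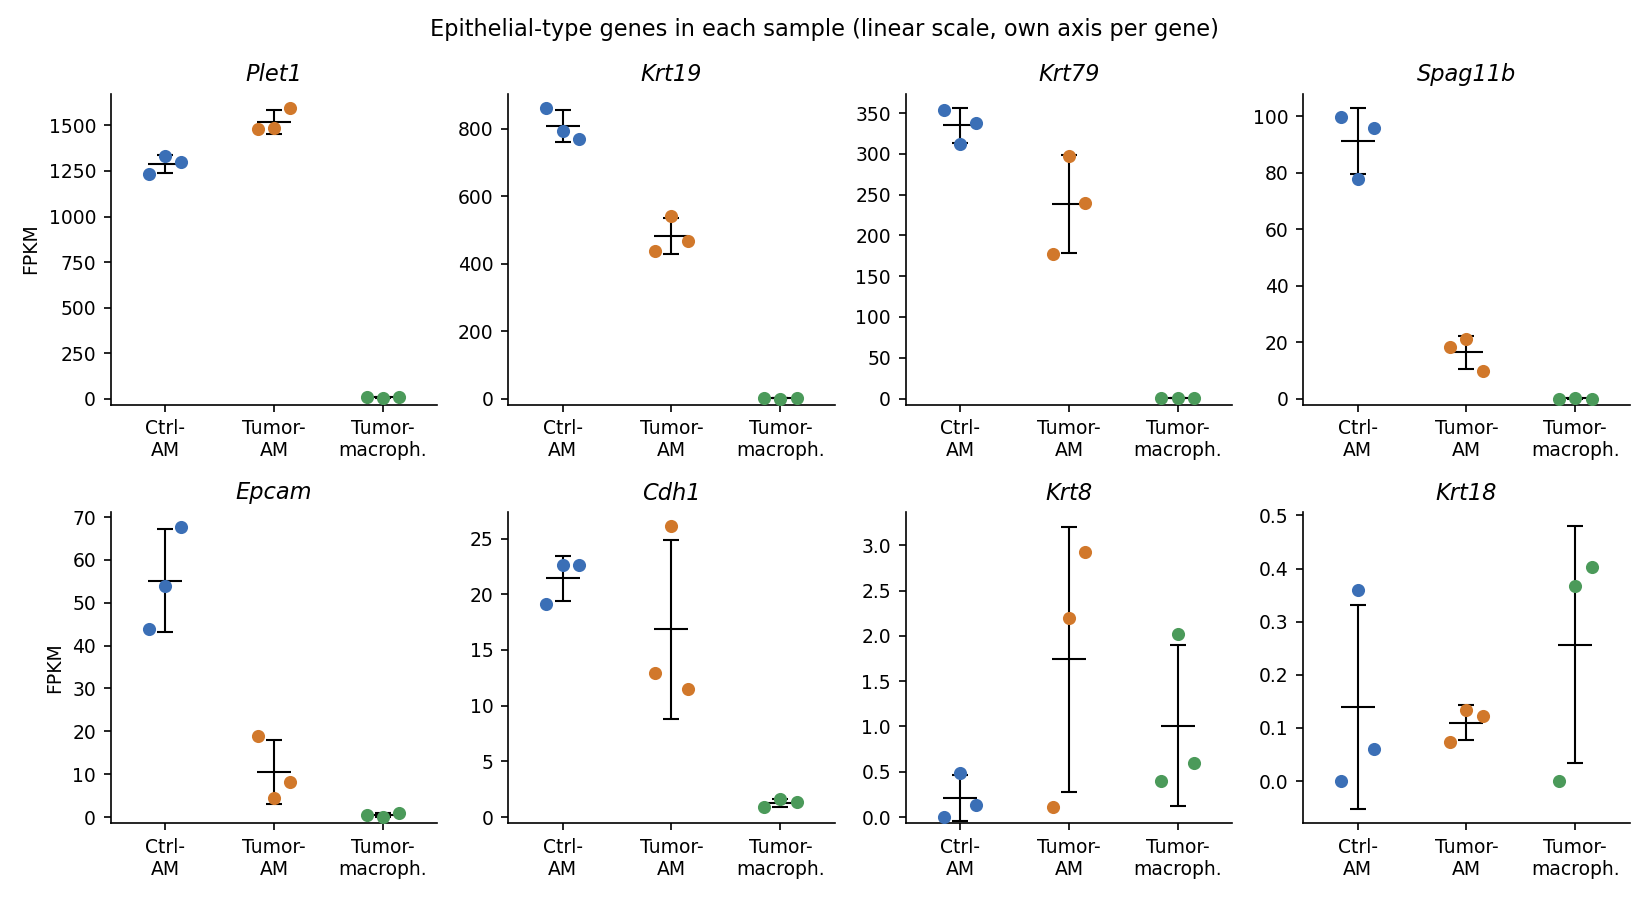
FPKM of the 8 genes in every sample, with a linear vertical axis of its own for each gene. Points are samples, the horizontal bar is the group mean and the whiskers are ± 1 SD (n = 3 per group). Plet1, Krt19, Krt79, Spag11b, Epcam and Cdh1 are highest in the AM groups and lie at 9.32 FPKM or less in Tumor-macrophage, and Krt8 and Krt18 stay below 3 FPKM in all 9 samples.

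In levels per length, the order of the Ctrl-AM means was Plet1, Krt19, Krt79, Spag11b, Epcam, Cdh1, Krt8 and Krt18, and only the last pair of neighbours, Krt8 and Krt18, overlapped between samples. In Tumor-AM the order was Plet1, Krt19, Krt79, Cdh1, Spag11b, Epcam, Krt8 and Krt18, where Cdh1, Spag11b and Epcam overlapped as neighbours, and Krt8 and Krt18 again. In Tumor-macrophage only Plet1 stood above its nearest neighbour without overlap.

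The changes were fitted with limma on log2(FPKM + 1) over all genes tested, where a fold of a low gene is understated, and adjusted p-values below 0.05 were called. Tumor-AM enters the first and the second comparison and Ctrl-AM the first and the third, so the comparisons share samples. In Tumor-AM against Ctrl-AM, 3 of the 7 members tested were called lower (3.18% of all genes tested were) and 0 were called higher (7.1% of all genes). The balance over all genes depended on the scaling, with 759 higher and 340 lower as deposited, 475 and 824 after rescaling to TPM (4.45% and 7.71%) and 623 and 443 after quantile normalization. The 3 were Spag11b (log2 change -2.46 ± 0.23, SE), Epcam (-2.46 ± 0.40) and Krt19 (-0.75 ± 0.15). The other 4 had log2 changes of -0.52 ± 0.15 (Krt79), -0.42 ± 0.25 (Cdh1), 0.24 ± 0.24 (Plet1) and 1.01 ± 0.44 (Krt8). Without Tumor-AM 2 the number called lower was 5, with Krt79 and Cdh1 added, after rescaling to TPM or quantile normalization it was 4, with Krt79 added, and with a pseudocount of 0.1 in place of 1 it was 1 (Spag11b). Krt19 was not called without Ctrl-AM 1, Krt8 was called higher without Tumor-AM 1, and Plet1 was called higher without Tumor-macrophage 2, while Epcam and Spag11b were called whichever single sample was left out.

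In Tumor-macrophage against Tumor-AM, 6 of the 7 were called lower (24.4% of all genes tested) and 0 higher (24.2%). The log2 changes were -8.32 (Krt19), -7.62 (Krt79), -7.60 (Plet1), -3.97 (Spag11b), -2.90 (Cdh1) and -2.83 (Epcam), and Krt8 had -0.35 and was called lower when Tumor-AM 1 was left out. The value of Spag11b is no bound on its change, since it depends on the pseudocount (-6.76 with 0.1). In Tumor-macrophage against Ctrl-AM the same 6 genes were called lower (27.1% of all genes) and 0 higher (27.7%), with log2 changes from -9.07 (Krt19) to -3.32 (Cdh1). Over all genes 2960 were higher and 2900 lower there as deposited, against 2130 and 4409 (19.9% and 41.3%) after rescaling to TPM. Since these comparisons chose the genes, nothing is read from the shares. The median log2 change of all genes tested was 0.01, 0.00 and -0.01 in the 3 comparisons. Rescaling the values to TPM moved that median to -0.11, -0.09 and -0.22, and no member changed direction relative to it.

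Lists of other genes were counted in the same fit. AM identity genes (20 listed and tested, among them Siglecf, Pparg, Car4 and Chil3) had 2 called higher and 3 lower in Tumor-AM against Ctrl-AM, with a median log2 change of -0.22. The called genes were Ctsk and Fabp5 (higher) and Fabp1, Cidec and Pparg (lower). In Tumor-macrophage against Tumor-AM 19 were called lower and 1 higher (Fabp5), with a median of -4.01. Chil3, the chitinase-like protein with the highest level of this list, went from 26230 to 236 FPKM (0.901% left), and Siglecf kept 0.380%.

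In percent of the Tumor-AM mean left in Tumor-macrophage, AM identity genes ranged from 0.0820% (Cidec, a lipid droplet protein) to 181% (Fabp5), with a median of 5.31%, and 8 of 20 kept less than 1%. Cidec was at 0, 0 and 0.590 FPKM in the Tumor-macrophage samples, so the lower end rests on a single sample. It was kept in this count, unlike Spag11b below. Of the members at 1 FPKM or more in Tumor-AM, Krt79, Krt19 and Plet1 kept less than 1%, Epcam and Cdh1 kept less than 10%, and Krt8 (57.8%) did not, with Spag11b left out as being under 3 reads in Tumor-macrophage. Lung epithelial markers ranged from 1.18% to 2448%, with a median of 52.5%, over the 20 at 1 FPKM or more in Tumor-AM. Of these, 0 kept less than 1%, but a marker of a few FPKM could not be measured that low. Ovol2, for example, was at 1.08 FPKM in Tumor-AM, while 3 reads of Krt19 are 0.149 to 0.187 FPKM. The counts below 1% are therefore not compared between the lists.

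The lung epithelial list held 70 markers of alveolar type 1, alveolar type 2, club, ciliated and basal cells and of epithelia in general. Of these, 7 were at 0 in all 9 samples, 39 were below 1 FPKM in all 9, and 22 were tested. Krt5, Krt14 and Krt17 of basal cells and Cldn4 and Grhl2 of epithelia in general were at 0 in every sample. Dsp and Esrp1 were at 0.05 FPKM or less. Others of these lists were not, and 4 of the 28 general epithelial markers reached 10 FPKM in a group mean. Spint1 averaged 32.9 and Spint2 10.3 FPKM in Ctrl-AM, and Krt15 of basal cells averaged 0.909 FPKM there. The summed level of the 70 was 546 to 612 FPKM in the Ctrl-AM samples, 585 to 810 in those of Tumor-AM and 361 to 445 in those of Tumor-macrophage. Tppp3 alone gave 242 to 513 FPKM of it in the AM samples and 61.0 to 98.2 in Tumor-macrophage. Without Tppp3, left out after its values were seen, the sums were 229 to 369, 208 to 305 and 271 to 384 FPKM. The groups then overlapped, in a mix of lists that went opposite ways. General epithelial markers summed to 82.3 to 93.1, 71.8 to 86.6 and 26.9 to 30.8 FPKM in the same order of groups. Alveolar type 1 markers summed to 14.51 to 18.85, 52.1 to 66.9 and 89.7 to 107.8 FPKM. Pdpn (means of 5.755, 34.13 and 72.32 FPKM) and Hopx (5.884, 18.62 and 22.96 FPKM) made up most of these sums. Of the others tested, Ager averaged 2.14, 3.38 and 1.18 FPKM and Emp2 1.31, 0.888 and 0.734 FPKM. Of the 2 club cell markers tested, Cbr2 averaged 3.28, 3.81 and 93.35 FPKM and Scgb1a1 58.6, 20.6 and 7.31 FPKM. Alveolar type 2 markers summed to 93.3 to 135.1, 75.6 to 134.4 and 74.6 to 129.3 FPKM, and these groups overlapped. The part of epithelial RNA in the members' levels was not tested beyond these values.

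In Tumor-AM against Ctrl-AM 3 of the 22 tested markers rose, among them Pdpn and Hopx, and 2 fell (Ovol2 and Ocln), with a median log2 change of 0.00. In Tumor-macrophage against Tumor-AM 3 rose (Cbr2, Etv5 and Pdpn) and 10 fell, with a median of -0.69. Several that fell were well above 0 in AMs. Ocln (occludin), a tight junction protein, was at 13.2 FPKM in the Ctrl-AM samples, 9.07 in those of Tumor-AM and 0.107 in those of Tumor-macrophage (log2 change of Tumor-macrophage against Tumor-AM -3.19, limma adjusted p = 4.04e-09). Its tricellular junction relative Marveld2 was at 21.2, 20.3 and 1.03 FPKM (-3.42, limma adjusted p = 1.03e-07). Ovol2, an epithelial transcription factor, was at 5.18, 1.08 and 0.111 FPKM and fell by 1.58 on the log2 scale from Ctrl-AM to Tumor-AM (limma adjusted p = 0.000158). The means of these 3 had the order of the groups that Krt19, Krt79 and Epcam had. Tppp3, listed as a ciliated cell marker, was at 287, 398 and 82.9 FPKM while the ciliated markers other than Tppp3 and Cfap126 did not pass the filter.

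**Figure D2:**
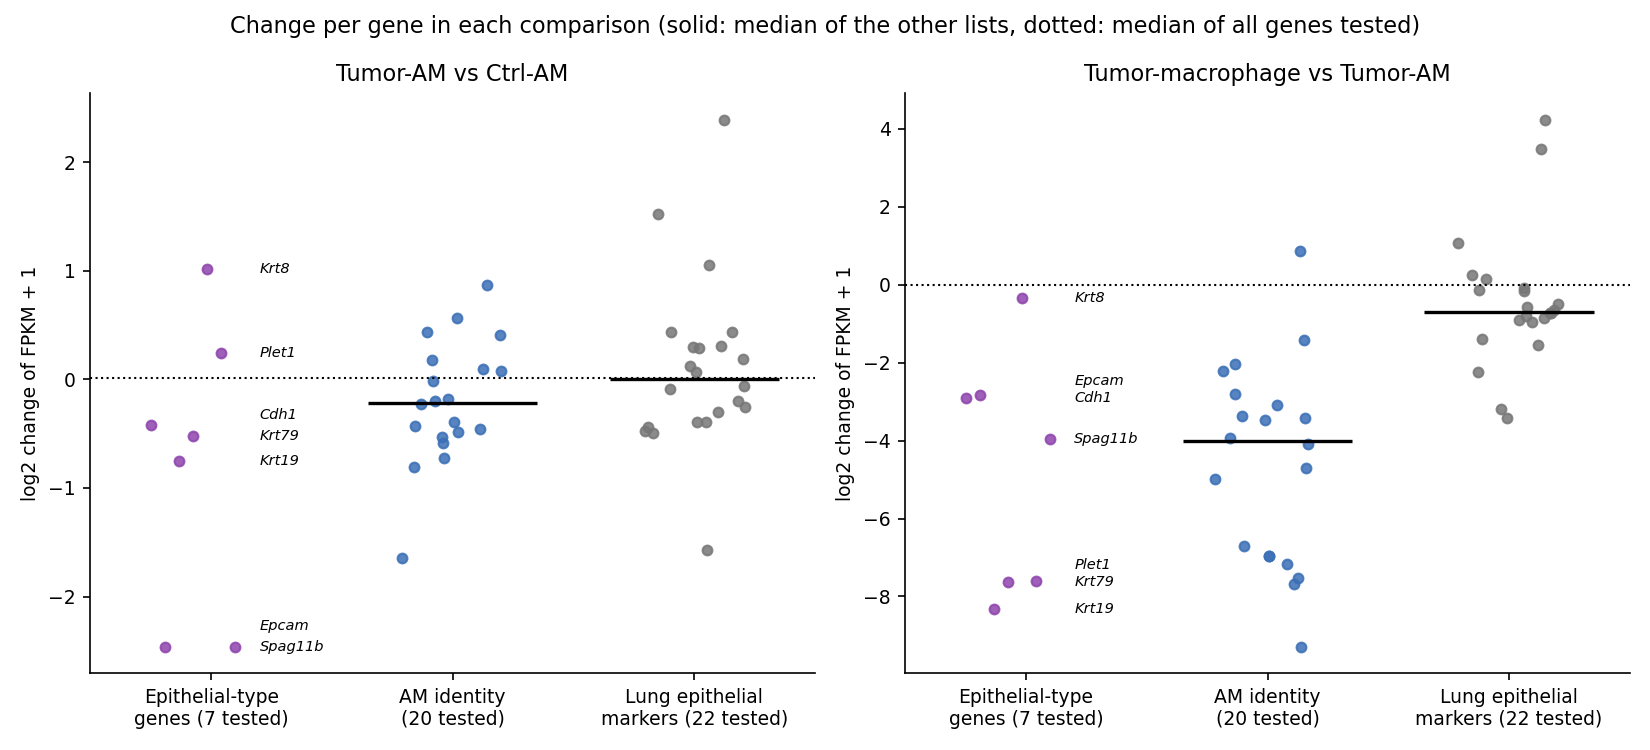
Log2 change of FPKM + 1 per gene (vertical axis) in Tumor-AM against Ctrl-AM (left) and Tumor-macrophage against Tumor-AM (right), for the 7 members tested, the 20 AM identity genes and the 22 lung epithelial markers tested. Each point is a gene, solid lines are the medians of both lists of other genes and the dotted line is the median of all genes tested. On the right the median of the AM identity genes is -4.01 and that of the epithelial markers -0.69.

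Scgb1a1 and Sftpc were uneven between samples of a group, whereas the surfactant proteins Sftpb and Sftpd had a CV (SD over mean) of 8.15% and 14.3% in Ctrl-AM. Scgb1a1, the secretoglobin of club cells, had 169, 5.22 and 2.197 FPKM in the Ctrl-AM samples, 53.2, 3.99 and 4.49 in those of Tumor-AM and 11.7, 3.70 and 6.47 in those of Tumor-macrophage. Its highest value was in sample 1 of each group, and Cyp2f2, a club cell enzyme, was also highest there, at 2.63, 0.643 and 0.279 FPKM. Sftpc, the surfactant protein of alveolar type 2 cells, had 28.6, 40.6 and 70.1 FPKM in the Ctrl-AM samples, 23.8, 22.2 and 55.1 in those of Tumor-AM and 6.19, 64.1 and 10.8 in those of Tumor-macrophage. Tumor-macrophage 2 was thus as high in Sftpc as the AM samples, while its Krt19 was the lowest of all 9 samples, at 0.150 FPKM. Its Krt8 (2.03 FPKM) and Cdh1 (1.58 FPKM) were the highest of its group.

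Relative to its group mean, Scgb1a1 ran from 0.0375 to 2.87 among the Ctrl-AM samples, while Krt19 ran from 0.952 to 1.07 and Plet1 from 0.957 to 1.03. Scgb1a1 does not stand for its list, since other epithelial markers were even there, such as Napsa (CV 2.49%) and Abca3 (4.10%). The CV among Ctrl-AM samples was 3.96% to 21.8% for the 6 members at 1 FPKM or more, with a median of 7.86%. In residual SD of log2 values over all 3 groups, the median was 0.353 for the 8 members and 0.314 for the epithelial markers tested. It was 0.230 for the AM identity genes and 0.154 for all genes tested. By this measure the members were not more even than the epithelial markers. The measure includes Tumor-macrophage, where most members were near 0, and counts Krt8 and Krt18 among the members. The CV of Ctrl-AM over the 20 AM identity genes was 1.96% to 23.2% (median 6.38%), over 19 epithelial markers 2.49% to 162% (median 20.6%), and over all tested genes the median was 8.65%. These lists differed in level. Of the markers at 10 FPKM or more in Ctrl-AM, Napsa, Spint2, Marveld2, Ocln, Spint1 and Tppp3 had a CV of 2.49% to 13.65%. Sftpc and Scgb1a1 had 45.9% and 162%. The other markers were below 10 FPKM, where few reads can raise the CV. The effect of level on these medians was not tested. The members were chosen by levels and changes in these same samples, so their spread may not be independent of that choice and is given as a description. Ctrl-AM 1, with the highest Scgb1a1, had the lowest Epcam and Cdh1 and the highest Krt19, Krt79 and Spag11b of its group, at 0.795 (Epcam) to 1.09 (Spag11b) times the group mean. Leaving out sample 1 of every group, the log2 change of Tumor-AM against Ctrl-AM was -3.10 for Epcam, -2.50 for Spag11b, -0.64 for Krt19 and -0.28 for Krt79, and 2 members were called (Epcam and Spag11b).

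The Tumor-AM samples were less alike. Their CV was 4.30% for Plet1, 10.9% for Krt19, 25.2% for Krt79, 35.3% for Spag11b, 47.9% for Cdh1, 70.5% for Epcam and 83.9% for Krt8, with a median of 35.3%, against a median of 13.8% over the AM identity genes, 21.8% over the epithelial markers and 10.5% over all genes tested. Krt18 could not be ranked, with an estimated 2.2 reads in both Tumor-AM 2 and Tumor-AM 3. Tumor-AM 2 was the highest of its group for Krt19, Krt79, Cdh1 and Spag11b and the lowest for Epcam. It was also the highest for 10 of the 20 AM identity genes, such as Marco (60.2, 329 and 95.3 FPKM), a scavenger receptor, and Car4 (554, 1169 and 658 FPKM), a carbonic anhydrase. For the 22 epithelial markers it was the highest for 1, and for all genes tested for 35.9%. The part of these other genes in the members' values was not tested.

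**Figure D3:**
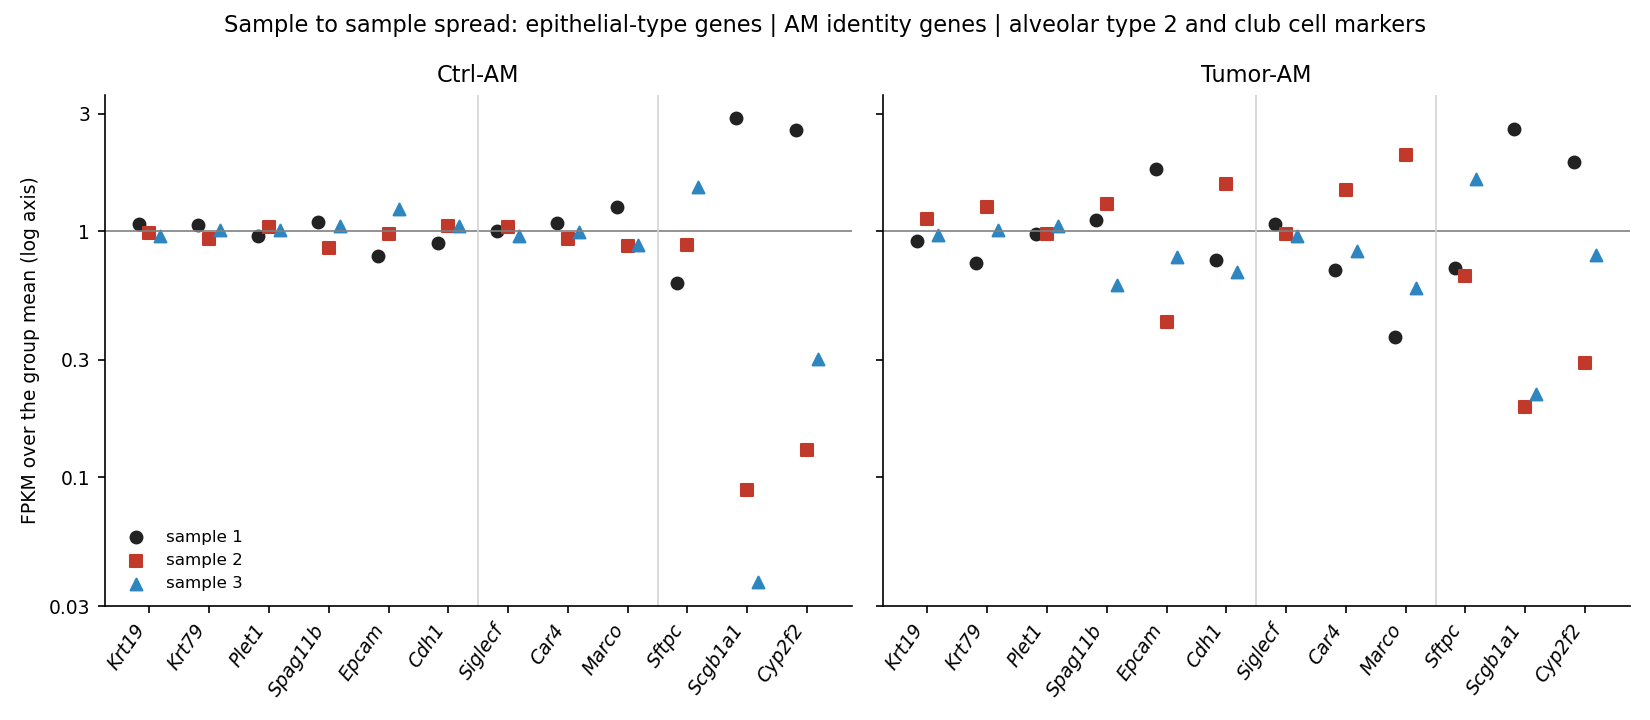
FPKM of each sample divided by the mean of its group (log axis) in Ctrl-AM (left) and Tumor-AM (right), for 6 members, the AM identity genes Siglecf, Car4 and Marco, and the markers Sftpc, Scgb1a1 and Cyp2f2. Marker shape and colour give the sample number. In Ctrl-AM the 6 members lie between 0.795 and 1.23, both ends being Epcam (CV 21.8%), and Scgb1a1 runs from 0.0375 to 2.87. The markers shown are uneven ones, and others not shown were even, such as Napsa (CV 2.49% in Ctrl-AM). In Tumor-AM, Cdh1 and Marco are highest in sample 2 and Epcam in sample 1.

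Within their families Krt19, Krt79 and Spag11b were the only genes that reached 10 FPKM. Of 48 keratin genes with values, 25 were at 0 in all 9 samples and 40 were below 1 FPKM in all 9. Krt19 and Krt79 together were 98.1% to 99.3% of the summed keratin FPKM of the AM samples and 4.60% to 17.6% of the much smaller sum in Tumor-macrophage (5.75 to 7.29 FPKM). The ratio of Krt19 to Krt79, a type I over a type II chain, was 2.43, 2.54 and 2.28 among the Ctrl-AM samples and 2.47, 1.81 and 1.94 in Tumor-AM. The ranges of both AM groups overlapped. In Tumor-macrophage the ratio was 4.86, 0.810 and 2.97, from few reads.

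Minor keratins were Krt78, Krt4 and Krt80, the other tested genes of the family. Krt78 had 2.95, 2.81 and 2.15 FPKM in the Ctrl-AM samples, 3.08, 5.04 and 4.46 in those of Tumor-AM and 0, 0 and 0.0497 in those of Tumor-macrophage, where it fell (log2 change against Tumor-AM -2.33 ± 0.16, limma adjusted p = 7.38e-07). Krt4 had 1.48, 2.63 and 1.74 FPKM in the Ctrl-AM samples, 0.674, 0.621 and 0.303 in those of Tumor-AM and 0 in each Tumor-macrophage sample. The fall from Ctrl-AM to Tumor-AM passed the threshold (-0.94 ± 0.17, limma adjusted p = 0.00647). Krt80 was at 1.96 to 4.38 FPKM in all 9 samples and did not pass the threshold between Tumor-macrophage and Tumor-AM (log2 change -0.02 ± 0.15, limma adjusted p = 0.916), though it was higher there than in Ctrl-AM (0.47 ± 0.15, limma adjusted p = 0.0194). Krt4 thus had the order of Krt19 across the groups at a far lower level, and Krt80 did not.

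**Figure D4:**
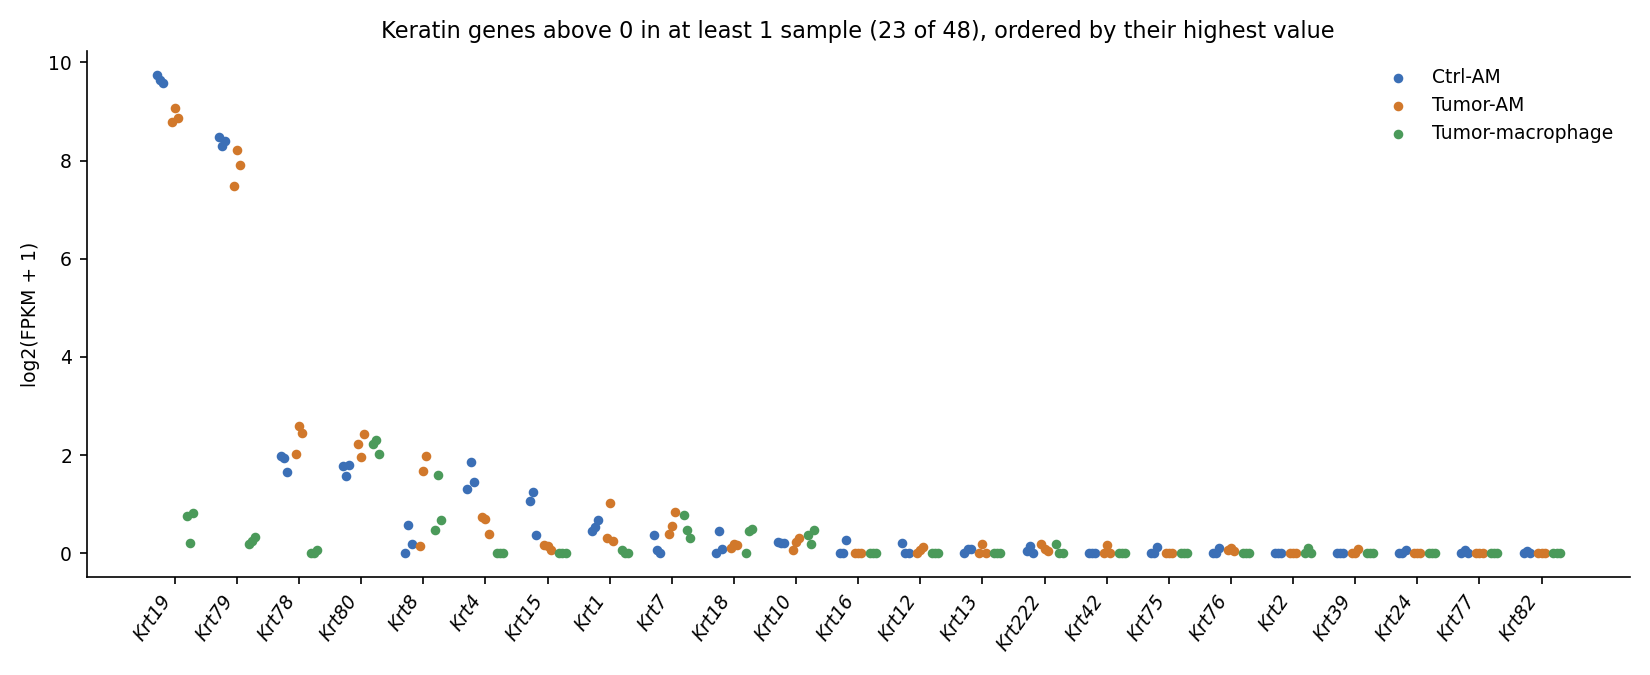
Log2(FPKM + 1) of the 23 keratin genes above 0 in at least 1 sample (of 48), with each sample a point coloured by group and genes ordered by their highest value. Krt19 and Krt79 stand apart in the AM groups, and Krt80 lies between 1.96 and 4.38 FPKM in all 9 samples.

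Of 45 Spag11 and Defb genes (defensins and relatives), 38 were at 0 in all 9 samples and Spag11b was the only one tested. Its neighbour in name Spag11a was at 0, 0.314 and 0.315 FPKM among the Ctrl-AM samples and listed at 0 in the other groups. Defb25 was at 0.908, 1.59 and 1.59 FPKM there and listed at 0 in all 6 other samples. Defb30 and Defb48 were listed at 0 in Ctrl-AM and reached 0.218 and 0.379 FPKM in the tumor groups. For the short transcript of Spag11b, 3 reads would be 0.685 to 0.863 FPKM. Reads of these other genes were not estimated, and no difference between groups is read from such low values.

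Partners of the members were measured too. Of 11 cadherin and catenin genes with values 5 were tested, and 0 were called in Tumor-AM against Ctrl-AM. Ctnnb1 (beta-catenin) was at 111, 113 and 76.4 FPKM and Jup (plakoglobin) at 24.8, 19.6 and 7.21 FPKM in Ctrl-AM, Tumor-AM and Tumor-macrophage. In Tumor-macrophage against Tumor-AM 3 of the 5 were called lower (Ctnnb1, Ctnnd1 and Jup) and 1 higher (Vcl), with a median log2 change of -0.56. In Tumor-macrophage 67.7% of the Tumor-AM level of Ctnnb1 was left, against 7.50% for Cdh1. Afdn was not found under that symbol.

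Among 7 transcriptional repressors of Cdh1, Zeb2 and Tcf3 were tested. Zeb2 rose at each step, from 9.42 to 12.6 FPKM (log2 change 0.38, limma adjusted p = 0.0486) and then to 16.5 (0.36, limma adjusted p = 0.0180). Zeb1, which did not pass the filter, had means of 0.742, 0.471 and 0.209 FPKM. Tcf3 was at 11.1, 11.5 and 10.3 FPKM and was not called. Of the other intermediate filament genes and keratin linkers (9 listed, 4 tested), Vim (vimentin) was at 1203, 1321 and 999 FPKM and Lmna (lamin A/C) at 625, 607 and 413 FPKM. In Tumor-macrophage against Tumor-AM 3 of the 4 fell (Vim, Lmna and Dst), and 0 were called in Tumor-AM against Ctrl-AM (medians -0.44 and 0.04).

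Other cell types that a sort could hold were counted in the same way. In Tumor-macrophage against Tumor-AM, 4 of 6 dendritic cell markers and 6 of 7 lymphocyte markers tested were higher and 0 lower. Their summed levels were 38.5 to 75.6 FPKM and 37.6 to 68.6 FPKM in Tumor-macrophage, against 11.7 to 19.4 and 5.96 to 14.2 in Tumor-AM, and 21.5 to 25.3 and 15.4 to 20.3 in Ctrl-AM. Fibroblast markers had 2 of 3 tested higher in Tumor-AM relative to Ctrl-AM, with sums of 12.8 to 85.3 against 3.72 to 6.70 FPKM. The top of that range was Tumor-AM 3, with Lum at 35.1, Dcn at 25.7 and Col3a1 at 21.0 FPKM. These genes were at 3.47 to 6.87 FPKM in the other Tumor-AM samples. Of the markers not tested, the means of Col1a1 and Col1a2 did not rise and that of Pdgfra did. Endothelial markers had sums of 2.15 to 8.27 FPKM over all samples and granulocyte and mast cell markers of 9.99 to 49.7 FPKM. Mmp8 made up most of the latter in the AM samples (30.7 to 49.1 FPKM, against 4.75 to 6.04 in Tumor-macrophage), and the sums without it were 2.07 to 4.70 in Ctrl-AM, 0.286 to 1.28 in Tumor-AM and 3.95 to 7.39 in Tumor-macrophage. Their part in the members' changes was not tested.

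The genes most alike to each member were sought over the 9 samples by Pearson's r of log2(FPKM + 1), as a description in which the gap between AMs and Tumor-macrophage carries much of the likeness. For Krt19 they were Perp (r = 0.9996, 146, 101 and 0.304 FPKM in Ctrl-AM, Tumor-AM and Tumor-macrophage), Serpinb1a and Fpr1, and for Krt79 Fpr1, Perp and Ltc4s, so both keratins had Perp and Fpr1 among their 3. For Plet1 they were Cyb561 (31.2, 33.1 and 0.331 FPKM), Sort1 and Nceh1, which like Plet1 were not lower in the Tumor-AM than the Ctrl-AM means. For Epcam they were Gpr155, Syne2 and Igflr1 (129, 44.3 and 6.68 FPKM), and for Cdh1 Nucb2 (r = 0.998), Esco1 and Fam122b. For Spag11b they were Frk, Ddx46 and Hsd17b4. The nearest gene to Krt8 was Cdk5rap1 (r = 0.933) and to Krt18 Tpx2 (r = 0.914), and each of the other members had r of 0.991 or more with its nearest gene.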

How the data were processed

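RNA of 9 samples (3 each of Ctrl-AM, Tumor-AM and Tumor-macrophage, grouped by the labels) had been amplified with a SMART-Seq kit and sequenced as single 75-base reads. According to the study's methods and processing notes, the authors aligned to mm10 with TopHat2 2.1.1 and Bowtie2 and deposited FPKM from Cuffdiff 2.2.1, 1 value per gene symbol and sample. Here the deposited FPKM were set on the log2(FPKM + 1) scale and fitted with limma 3.58.1 (R 4.3.3), with an intensity trend and Benjamini-Hochberg adjustment over 10686 genes. The 3 groups shared 1 spread. The fit was tested on simulated data. The p-values measure the spread between these 3 samples a group. Depth was estimated from steps between low values. The members and lists were chosen with earlier results of these data known. The genes named are the members, their families, the list genes used as examples and the 3 most alike genes. List genes other than the 3 highest of a list were named after their values were seen. Alternatives changed the pseudocount, filter, scaling, variance model, block and samples. Promoter windows came from RefSeq (GRCm38.p6) and gene positions from GENCODE vM21. A marker that is counted in a list but withheld is not reported here by name.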

Additional observations from a re-analysis of the deposited data

How the results depend on the processing

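The samples are 3 a group, so 1 library can move a count, and low levels (Krt8, Krt18 and every member but Plet1 and Cdh1 in Tumor-macrophage) rest on few reads. Leaving out each sample in turn, the number called in Tumor-AM against Ctrl-AM ranged from 535 to 1255 over all genes (1099 with all samples), from 2 to 5 for the members (3), from 3 to 5 for the lung epithelial markers (5) and from 3 to 7 for the AM identity genes (5). The lowest count over all genes came without Ctrl-AM 1 (535), and it was 546 without Ctrl-AM 3, 675 without Tumor-AM 3 and 682 without Ctrl-AM 2. For the AM identity genes it was 3 without any single Ctrl-AM sample or Tumor-AM 3, and for the epithelial markers 3 without Tumor-AM 2 or Tumor-AM 3. A pseudocount of 0.1 gave 1 member called in that comparison and raised the members' median residual SD of log2 values from 0.353 to 0.609. Epithelial markers called there were 3 with a filter at 5 FPKM. AM identity genes called there were 3 with no filter, 8 after rescaling to TPM and 9 with only the compared groups fitted. In Tumor-macrophage against Ctrl-AM, 22 epithelial markers were called with no filter, against 14. The cause of these differences was not tested.

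2 alternatives were chosen after seeing the data. Leaving out sample 1 of every group gave 3 epithelial markers called in Tumor-AM against Ctrl-AM. Without the 12 listed markers at 10 FPKM or more in a group mean, 2, 4 and 4 were called in the 3 comparisons, against 5, 13 and 14. No member called in the fit of all samples as deposited changed direction under the alternatives run. The balance over all genes did change. In Tumor-AM against Ctrl-AM it went from 759 higher and 340 lower to 475 and 824 after rescaling to TPM. In Tumor-macrophage against Ctrl-AM it went from 2960 and 2900 to 2130 and 4409. Samples with the same number were not shown to be paired (correlations of their deviations from -0.06 to 0.16, with 2 of 9 above 0.1, though 7 of 9 samples correlated best with their own number). With the replicate number as a block, 938 genes and 3 members were called in Tumor-AM against Ctrl-AM.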
